A study of Arabidopsis thaliana with 56 samples.

Results

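The comparison is of nuclear entry of MYBR1, also known as MYB44 (AT5G67300), with the empty vector (EV) in Arabidopsis root cells. Its members are the 3 libraries titled MYBR1 and the 3 EV libraries of batch 2, which are 6 of the 56 libraries of the series and 6 of the 21 libraries of batch 2. All 6 came from root protoplasts of 10 day old Col-0 seedlings. The TF group carried a plasmid that expresses MYBR1 and the EV group an empty vector. The paper describes TF plasmids with a red or a green fluorescent marker, and sorting of cells by marker. The labels do not give the marker of any library. A difference in marker between the groups, if there was one, cannot be told apart from the TF and was not tested. Both groups received 35 uM cycloheximide (CHX), which blocks translation, and 10 uM dexamethasone (DEX), which lets the expressed TF fusion enter the nucleus, and 10000 to 20000 sorted cells gave each library. This is the TARGET assay: with translation blocked, transcripts that differ from EV are read as TF-induced or TF-repressed without a newly made intermediate protein. As a model it is limited to cells without walls that express the TF transiently from a plasmid, and replicates were wells of the same transfected cells, so that the spread between them is mostly technical and p-values do not cover variation between transfections.

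MYBR1 is an R2R3-MYB factor of subgroup 22, together with MYB70, MYB73 and MYB77, and binds DNA words of the form AACNG. It has been studied in the response to abscisic acid (ABA), the hormone of drought, and in the balance of salicylic acid and jasmonate defences through WRKY70 and the ethylene signalling gene EIN2. In the ABA pathway, PYR/PYL receptors bind the hormone and then inhibit the clade A PP2C phosphatases, which frees SnRK2 kinases to activate ABA response genes. MYBR1 has been described as a repressor of PP2C genes.

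The transfected gene followed the labels. AT5G67300, on chromosome 5 from 26854022 to 26856006 on the plus strand (TAIR10.1), had 4175, 4562 and 4991 CPM (counts per 1000000, scaled by TMM, edgeR's factor for library composition) in MYBR1 cells, against 102, 100 and 100 CPM in EV cells. The level was 45.3-fold higher in MYBR1 cells (log2 fold change 5.50 ± 0.11 SE). Reads of the plasmid and of the chromosomal gene cannot be told apart, nor can reads of the overlapping genes AT5G67310, AT5G09855 and AT5G09865 if strand was not used in counting, and the gene was left out of every count below.

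Depth differed between the groups. Total counts were 25640720, 13339866 and 8619133 in MYBR1 libraries, against 14987933, 19914633 and 12975619 in EV libraries. In them 4 loci that resemble ribosomal RNA genes took 76.8%, 37.8% and 15.1% in MYBR1 libraries, against 25.8%, 15.7% and 7.5% in EV libraries, and left 5955353 to 8298729 counts for other genes in MYBR1 libraries, against 11118944 to 16793401 in EV libraries. The share was higher in MYBR1 libraries at each replicate number, although the groups overlapped. With the log2 share as a covariate, 1606 genes were induced and 1514 repressed, of which 1309 and 1169 were also called without it; its further part in the results was not tested.

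MYBR1 changed 3058 of the 17337 genes that passed the filter on low counts. Of these, 1625 were induced (9.37% of the genes tested) and 1433 were repressed (8.27%), together 17.6%, at an FDR under 0.05 in edgeR's quasi-likelihood test. At more than 2-fold, 813 were induced and 533 repressed. In 3015 of the 3058 the libraries of the groups did not overlap. Over all genes tested, called or not, the MYBR1 libraries lay wholly above the EV libraries in 16.7% and wholly below in 17.4%. The median log2 fold change of all genes was -0.01, since TMM centres it. Scaling by total counts alone, in which the rRNA-like loci weigh, moved that median to -0.53 and left 36 induced and 99 repressed genes. The SE rose as well, from 0.14 to 0.63 in MKK5 and from 0.09 to 0.67 in LYK5, so fewer calls do not reflect the shift alone. With TMM and the rRNA-like loci left out, 1645 genes were induced and 1442 repressed. The changes given are relative to the scale that TMM sets. Tested against a fold of 1.5, 600 were induced and 449 repressed.

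Genes were ranked by size among called genes with a mean log2 CPM of at least 3, no overlap of libraries and a symbol or description. The 12 genes of that ranking with the largest rises included enzymes and transporters of specialised metabolism, wall and suberin. TPS04, the geranyllinalool synthase that opens the path to a volatile homoterpene, had 22.6, 37.3 and 35.9 CPM in MYBR1 cells, against 0.87, 1.72 and 2.66 CPM in EV cells. The groups lay far apart, with a log2 fold change of 4.18 ± 0.31 (SE; edgeR adjusted p = 1.41e-06). DOGT1, a glucosyltransferase that acts on the toxin deoxynivalenol and on brassinosteroids, had 44.1, 40.7 and 71.7 CPM in MYBR1 cells, against 3.71, 2.58 and 3.49 CPM in EV cells (log2 4.01 ± 0.24). For DOGT1, 6.76% of its exon words of 50 bases recur elsewhere in the genome, so a small part of its reads may belong to relatives. The fatty acid elongase gene KCS2, which makes very long chains for suberin and wax, was induced by 3.12 ± 0.27 on the log2 scale, and ABCG2, a transporter of suberin precursors, by 2.9 ± 0.21. KCS2, ABCG2 and CT-BMY overlap other genes, so their counts are uncertain without strand, as are those of SNRK2.8, SNRK2.3, SARD1, CBP60a, EDS5, JAZ10, MKK5, FRK1, CCR2, CML24, DREB2A, IAA5, HSP101 and ABI1 below. NAC058, a NAC factor, rose 11.6-fold, with 18.9, 15.9 and 12.6 CPM in MYBR1 cells, against 1.45, 0.86 and 1.83 CPM in EV cells. CT-BMY, a beta-amylase of the chloroplast that releases maltose from starch, had 73.3, 68.4 and 64.1 CPM in MYBR1 cells, against 8.24, 9.86 and 6.86 CPM in EV cells. The other 6 of the 12 encode a cotton fiber protein (AT1G30190, log2 3.70), a SAUR-like protein (AT1G56150, 3.34), an aspartyl protease (AT2G03200, 3.22), an F-box protein (AT1G70390, 3.06), the wall peroxidase AT2G41480 (3.0) and a hydroxyproline-rich glycoprotein (AT2G22510, 2.89).

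The 12 genes with the largest falls in the same ranking included an expansin, a kinase of MAP kinase cascades and DNA-binding factors. EXPA4, an expansin that loosens the wall for growth, had 42.8, 35.9 and 24.5 CPM in MYBR1 cells, against 375, 337 and 315 CPM in EV cells. It was 9.98-fold lower in MYBR1 cells (log2 -3.32 ± 0.17 SE, edgeR adjusted p = 1.6e-07). MAPKKK15, a kinase at the head of MAP kinase cascades, had 24.4, 23.9 and 23.8 CPM in MYBR1 cells, against 181, 180 and 189 CPM in EV cells. AT5G07310, annotated as an integrase-type DNA-binding protein, the fold of AP2/ERF factors, had 90.8, 94.5 and 80.1 CPM in MYBR1 cells, against 606, 663 and 661 CPM in EV cells. In both genes the replicates lay close together and the groups far apart. ZF1, a C2H2 zinc finger factor, had 23.6, 15.4 and 20.3 CPM in MYBR1 cells, against 156, 139 and 130 CPM in EV cells (log2 -2.85 ± 0.15), and the ankyrin repeat gene AT4G03480 had 21.7, 20.4 and 19.3 CPM, against 153, 171 and 175 CPM in EV cells (log2 -3.02 ± 0.11). TCX2, a CXC-domain factor of cell division genes that overlaps AT4G14760, fell by 3.29 on the log2 scale. The remaining 6 encode a GPI-anchored glycoprotein (AT5G19230, log2 -2.81), an Obg-like GTP-binding protein (ATOBGM, -2.72), a protein kinase (AT5G20050, -2.56), an inhibitor of invertase or pectin methylesterase (AT3G47380, -2.54), a transporter of the major facilitator family (AT3G45660, -2.5) and the small GTPase ARFD1A (-2.46).

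**Figure D1:**
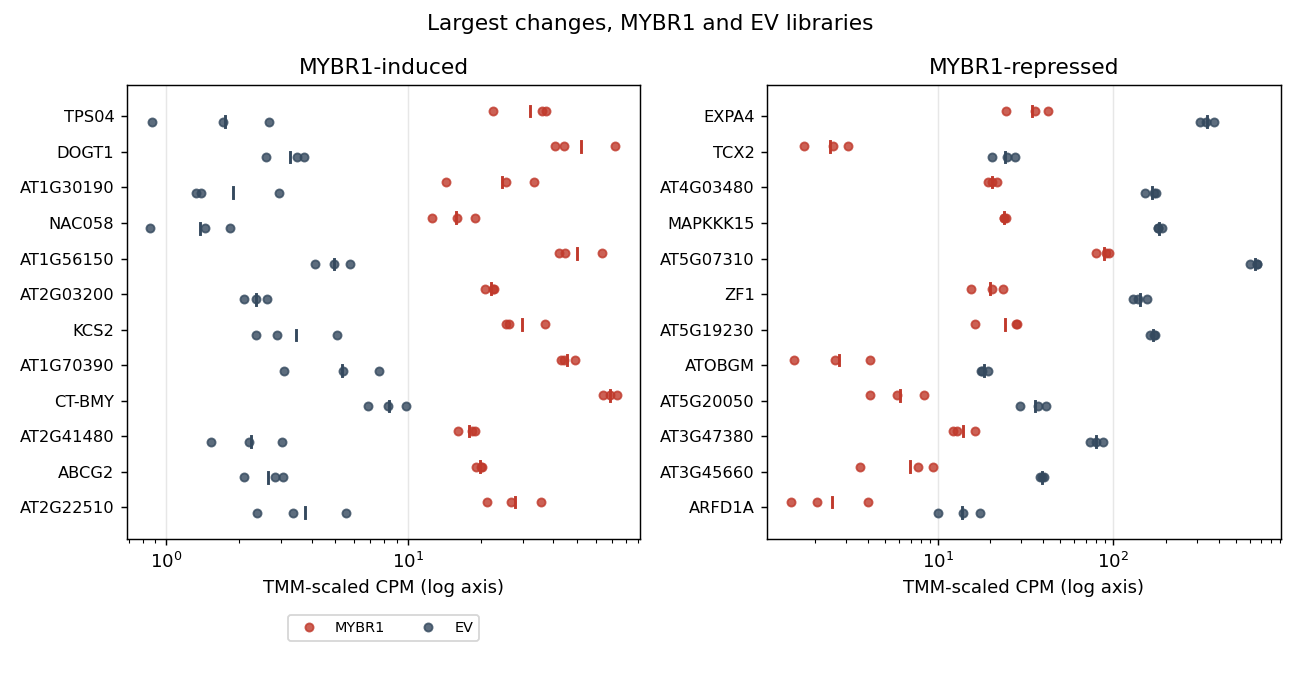
Each point is 1 library (TMM-scaled CPM, log axis) of the 12 most induced (left) and 12 most repressed (right) genes, chosen by size among genes whose groups do not overlap, with MYBR1 in red above EV in dark blue and the mean as a short line. The largest fold is in TPS04 (31.9 ± 8.13 CPM in MYBR1 cells and 1.75 ± 0.894 CPM in EV cells, SD, n = 3 each).

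Promoters of these genes are shown because MYBR1 binds AACNG, and a reader can see where that word stands. Each window runs from 250 bases before to 50 bases after the annotated gene start (TAIR10.1, read 5′ to 3′ on the gene's strand), and capitals mark AACNG on either strand, a set that includes the palindromic word AACNGTT. Shown are the most repressed gene of the ranking by size, the repressed MYBR1 relative MYB73 and the 2 most induced genes of that ranking.
EXPA4 (chr2:16545697-16545996, minus strand): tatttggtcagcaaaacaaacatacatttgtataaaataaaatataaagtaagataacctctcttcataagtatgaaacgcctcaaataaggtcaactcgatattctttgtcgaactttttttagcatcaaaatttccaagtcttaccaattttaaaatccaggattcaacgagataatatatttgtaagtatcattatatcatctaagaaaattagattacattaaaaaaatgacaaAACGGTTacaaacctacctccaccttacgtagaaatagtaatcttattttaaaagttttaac
MYB73 (chr4:17540240-17540539, plus strand): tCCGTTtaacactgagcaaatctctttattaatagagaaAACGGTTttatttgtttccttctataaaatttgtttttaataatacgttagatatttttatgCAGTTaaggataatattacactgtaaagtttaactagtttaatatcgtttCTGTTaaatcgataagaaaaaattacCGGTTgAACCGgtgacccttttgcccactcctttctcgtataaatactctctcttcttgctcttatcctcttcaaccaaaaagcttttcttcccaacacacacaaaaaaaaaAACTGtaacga
DOGT1 (chr2:15425080-15425379, minus strand): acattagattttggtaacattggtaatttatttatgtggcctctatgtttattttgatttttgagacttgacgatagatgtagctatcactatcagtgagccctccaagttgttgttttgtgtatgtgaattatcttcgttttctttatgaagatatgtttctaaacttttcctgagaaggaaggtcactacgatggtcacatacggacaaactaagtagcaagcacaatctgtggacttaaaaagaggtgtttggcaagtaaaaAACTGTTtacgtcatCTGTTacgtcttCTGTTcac
TPS04 (chr1:22523385-22523684, plus strand): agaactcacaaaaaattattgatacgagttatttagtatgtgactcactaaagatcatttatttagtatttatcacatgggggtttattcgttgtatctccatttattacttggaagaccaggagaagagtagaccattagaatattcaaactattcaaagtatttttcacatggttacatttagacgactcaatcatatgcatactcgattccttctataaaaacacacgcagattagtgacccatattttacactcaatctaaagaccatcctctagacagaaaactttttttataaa
EXPA4 holds 2 matches, MYB73 holds 8, DOGT1 holds 4 and TPS04 holds 0. An induced and a repressed gene can thus each have the word, and the most induced gene of the ranking lacks it in this window. Among all called genes the word was no more frequent than elsewhere: 74.0% of the promoters of induced genes and 75.7% of those of repressed genes held it, against 78.4% of all genes tested and 77.4% of the 38092 windows of the annotation. The 95% Wilson intervals were 71.8% to 76.0% in induced and 73.4% to 77.9% in repressed promoters. The word is common, and what sets its shares was not tested. Matches per window averaged 1.64 in induced and 1.7 in repressed promoters, against 1.89 over all genes tested. The paper used other measures, known motifs and in vitro binding. It reported both as enriched in MYBR1-repressed targets only. AACNGTT stood in 7.45% of induced and 9.91% of repressed promoters, against 9.03% of all genes tested and 8.76% of all windows.

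TTGAC, the core of the W-box that WRKY factors bind, stood in 68.2% of the promoters of repressed genes and 52.3% of those of induced genes, against 52.5% of all genes tested and 49.5% of all windows. ACGTG, the core of the ABA-responsive element, stood in 37.2% of induced and 26.2% of repressed promoters, against 27.5% and 24.5%. CACGTG, the G-box, which contains ACGTG, stood in 12.1% of induced and 5.86% of repressed promoters, against 8.66% and 6.45%. CGCGT, the word of the calmodulin-binding CAMTA factors, stood in 20.2% of induced and 10.7% of repressed promoters, against 10.8% and 8.57%. The GCC box GCCGCC stood in 2.4% of induced and 2.86% of repressed promoters, against 2.83% and 2.74%, and the telo box AACCCTA in 5.48% and 3.98%, against 8.19% and 8.94%. All words were searched on both strands, and the shares are descriptions without a test. The windows below show a repressed WRKY gene with TTGAC in capitals, an induced PP2C gene with ACGTG in capitals and an induced calcium sensor gene with CGCGT in capitals.
WRKY11 (chr4:15291885-15292184, minus strand): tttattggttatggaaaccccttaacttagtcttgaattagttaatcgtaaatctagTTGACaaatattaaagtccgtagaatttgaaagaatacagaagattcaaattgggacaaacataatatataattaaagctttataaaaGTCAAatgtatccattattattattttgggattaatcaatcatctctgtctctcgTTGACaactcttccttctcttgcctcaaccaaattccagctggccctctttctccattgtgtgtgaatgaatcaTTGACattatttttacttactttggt
PP2CA (chr3:3585801-3586100, minus strand): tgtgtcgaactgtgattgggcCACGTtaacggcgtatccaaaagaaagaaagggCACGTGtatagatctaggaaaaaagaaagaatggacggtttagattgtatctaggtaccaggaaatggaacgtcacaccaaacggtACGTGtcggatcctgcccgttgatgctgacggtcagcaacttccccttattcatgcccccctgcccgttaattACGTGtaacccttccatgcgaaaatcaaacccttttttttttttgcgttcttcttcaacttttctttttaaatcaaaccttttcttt
CML24 (chr5:14999570-14999869, minus strand): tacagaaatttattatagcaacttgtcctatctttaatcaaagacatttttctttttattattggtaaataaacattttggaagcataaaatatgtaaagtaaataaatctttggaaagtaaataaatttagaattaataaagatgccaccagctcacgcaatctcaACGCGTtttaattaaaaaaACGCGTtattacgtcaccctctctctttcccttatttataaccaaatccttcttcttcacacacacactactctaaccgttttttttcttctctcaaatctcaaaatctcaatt
WRKY11 holds 4 matches to TTGAC, PP2CA holds 5 to ACGTG and CML24 holds 4 to CGCGT. They were chosen for holding many matches and do not stand for their lists. WRKY7, the most repressed WRKY of the list, holds 0 matches to TTGAC, and of the other induced PP2C genes ABI1, ABI2 and HAI1 hold 0 to ACGTG, HAB1 holds 1, HAB2 and HAI3 hold 2 and HAI2 holds 4. PP2CA also holds 6 matches to AACNG.

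In the ABA pathway, phosphatase and response genes were induced. Of the 9 clade A PP2C genes, 8 were tested and 8 were induced (background 9.37%), with a median log2 fold change of 1.21 beside -0.01 over all genes. AHG1, the remaining member, was too low to test. HAI3 had 16.1, 8.62 and 11.4 CPM in MYBR1 cells, against 2.2, 0.939 and 1.11 CPM in EV cells (log2 3.1 ± 0.37, edgeR adjusted p = 5.8e-05). ABI2 had 15.9, 16.2 and 22.6 CPM in MYBR1 cells, against 6.61, 4.26 and 4.15 CPM in EV cells (log2 1.87 ± 0.24). PP2CA, whose promoter with 5 ABRE cores is shown above, had 90.2, 74.2 and 79.5 CPM in MYBR1 cells, against 47.3, 26.2 and 26.7 CPM in EV cells. No library of one group reached the other in any of the 8 genes, beside 16.7% of all genes tested with MYBR1 wholly above EV. HAI1 (log2 1.69), HAI2 (1.13), HAB1 (1.02), HAB2 (0.71) and ABI1 (0.48 ± 0.15, edgeR adjusted p = 0.0382) completed the set, and ABI1 was not called when any 1 library other than MYBR1 replicate 3 was left out (adjusted p 0.092 to 0.147), nor with the ribosomal covariate.

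Of 14 PYR/PYL genes, 6 were tested, none was induced and 1 was repressed (background 9.37% induced and 8.27% repressed), with a median log2 fold change of 0.08. The repressed gene was PYL4, which had 59.7, 57.6 and 43.9 CPM in MYBR1 cells, against 123, 121 and 123 CPM in EV cells (log2 -1.19 ± 0.12, edgeR adjusted p = 1.91e-05). Of the 10 SnRK2 kinase genes, 8 were tested and 3 were induced (background 9.37%): SNRK2.9 (log2 2.05 ± 0.31), SNRK2.8 (1.59 ± 0.26) and SNRK2.3 (0.67 ± 0.16), of which SNRK2.3 is one of the ABA-activated kinases. OST1, the ABA-activated kinase of guard cells, had 1.08, 2.9 and 1.28 CPM in MYBR1 cells, against 1.86, 1.53 and 1.27 CPM in EV cells, and was not called.

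Of the 16 ABA and dehydration response genes, 13 were tested, 11 were induced (background 9.37%) and none was repressed, with a median log2 fold change of 1.32. RD29A, a classical desiccation marker, had 119, 126 and 106 CPM in MYBR1 cells, against 30.6, 21.5 and 17.2 CPM in EV cells (log2 2.34 ± 0.18, edgeR adjusted p = 1.56e-06). The small cold and ABA protein gene KIN2 had 56.3, 61.5 and 82.9 CPM in MYBR1 cells, against 16.3, 14.9 and 17.6 CPM in EV cells (log2 2.04 ± 0.16). The dehydrin gene LTI30 (log2 1.89 ± 0.15) and the NAC factor gene RD26 (1.5 ± 0.15) followed, and the dehydrins COR47 and ERD10 about doubled, at 1.12 and 1.04. RAB18 had 14.5, 9.0 and 6.49 CPM in MYBR1 cells, against 11.8, 6.22 and 2.49 CPM in EV cells, with groups that overlapped, and NAC019 differed by 0.31 ± 0.10 (edgeR adjusted p = 0.0527). Leaving out any 1 library left 11 induced genes in this list and 7 or 8 among the PP2Cs, and leaving out replicate 1 of both groups left 11 and 7.

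The same genes were set against other TFs. Against the mean of the 5 other TFs assayed in batch 2 (MYB3, DIV2, GBF2, WRKY33 and HSFA6A), 745 of 19560 genes were higher in MYBR1 cells (3.81%) and 1152 lower (5.89%), 9.70% in all. A difference from that mean need not hold against each of the 5, and group averages given beside it are CPM scaled over all 21 libraries of batch 2, so they differ from the values per library given for MYBR1 and EV cells. Of the 13 ABA response genes tested, 1 was higher in that contrast, RD29A (log2 0.51 ± 0.12, edgeR adjusted p = 0.00358), and none was lower. COR47 differed by 0.00 ± 0.08 and KIN2 by 0.15 ± 0.14. Of the 8 PP2C genes, 4 were higher than the mean of the other TFs: HAI3 (0.86 ± 0.28), ABI2 (0.76 ± 0.21), PP2CA (0.57 ± 0.15) and ABI1 (0.44 ± 0.14). PP2CA lay above every library of the other TFs, but the other named PP2C genes did not. HAI3 averaged 13.7 CPM in MYBR1 and 13.6 in DIV2 cells, ABI2 20.9 in MYBR1 and 22.1 in GBF2 cells, and ABI1 33.6 in MYBR1 and 33.4 in GBF2 cells. PYL4, in contrast, was lower than the mean of the other TFs (-1.24 ± 0.10, edgeR adjusted p = 3.92e-10). Of 10 SnRK2 genes tested there, 1 was higher, SNRK2.9 (0.89 ± 0.25), and none was lower. SNRK2.8 (-0.24 ± 0.19) and SNRK2.3 (0.29 ± 0.14) were not called, and SNRK2.8 averaged 15.1 CPM in MYBR1 and 134 in DIV2 cells. On the scale of batch 2, RD29A averaged 134 CPM in MYBR1 cells, 108 in MYB3, 150 in DIV2, 142 in GBF2, 48.3 in WRKY33 and 67.1 in HSFA6A cells, and 27.3 CPM in EV cells.

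**Figure D2:**
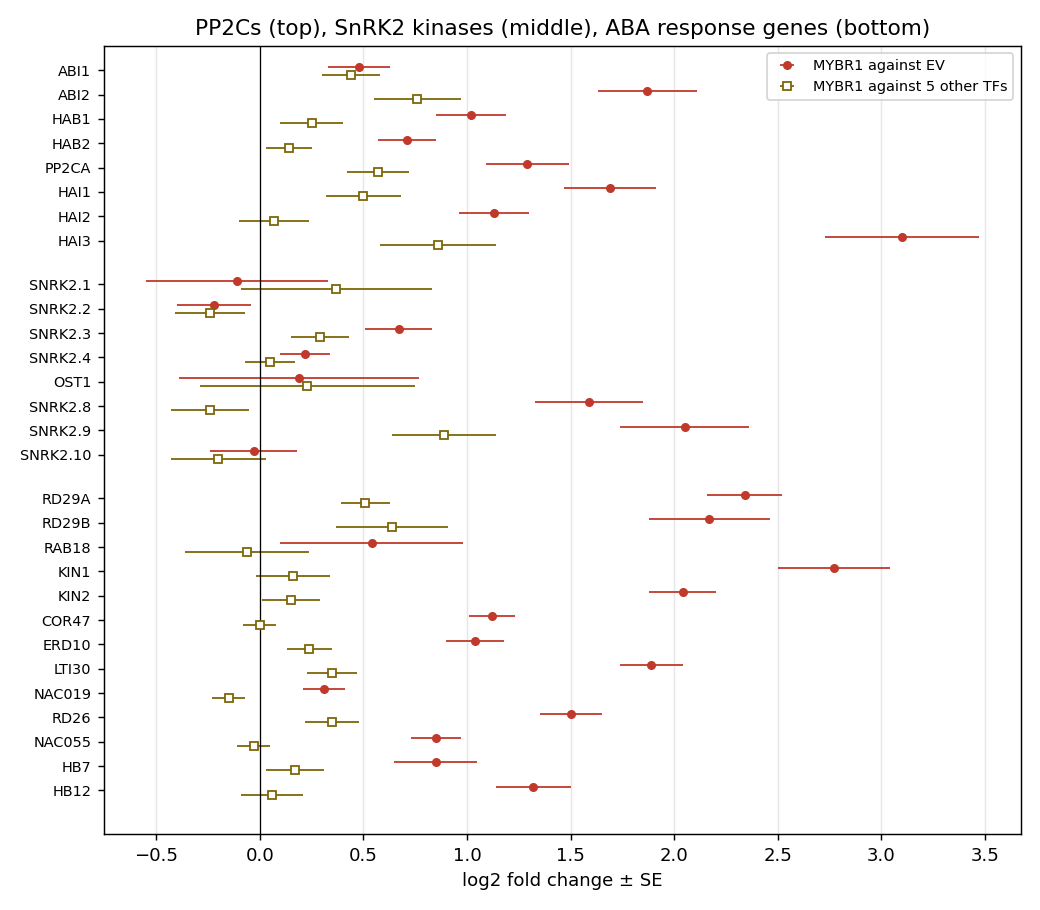
Log2 fold changes (± SE) of the tested clade A PP2Cs (top), SnRK2 kinases (middle) and ABA response genes (bottom) in MYBR1 cells against EV (red, 3 libraries each) and against the mean of the 5 other TFs of batch 2 (open squares, 15 libraries). The red points reach 3.1 in HAI3, while the open squares of the response genes stay between -0.15 (NAC019) and 0.64 (RD29B).

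Of 8 MYB relatives of subgroups 22 and 4, 8 were tested, none was induced and 1 was repressed, near the background of 9.37% and 8.27%, with a median of -0.38. MYB73, a subgroup 22 sister gene of MYBR1 with 8 AACNG words in the window shown above, had 150, 119 and 123 CPM in MYBR1 cells, against 361, 337 and 305 CPM in EV cells. It fell by 1.36 on the log2 scale (SE 0.11, edgeR adjusted p = 2.72e-06) and was also lower than the mean of the 5 other TFs (-1.27 ± 0.09), with 149 CPM in MYBR1 cells, 305 to 462 CPM in the other TF groups and 396 CPM in EV cells. MYB73 overlaps AT4G37270. MYB70 (log2 -0.50 ± 0.18, adjusted p = 0.0861 in edgeR) and MYB77 (-0.28 ± 0.19) were not called against EV and were lower than the mean of the 5 other TFs (-0.68 and -1.02). The promoter windows of MYB70 and MYB77 also hold many AACNG words, 5 and 6, against a mean of 1.89 over all genes tested. MYB77 averaged 34.8 CPM in MYBR1 cells, 123 and 130 in DIV2 and GBF2 cells, 66.1 and 60.2 in MYB3 and HSFA6A cells, and 27.5 in WRKY33 cells. MYB70 and MYB77 were called repressed once the ribosomal share was a covariate (-0.66 and -0.64), a fit in which 4 of the 8 were repressed, and MYB77 also without MYBR1 replicate 1 (-0.54).

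Defence WRKY genes were mostly repressed. Of 26 listed genes, which encode factors that bind the W-box, 24 were tested, 15 were repressed (background 8.27%) and 4 were induced, with a median log2 fold change of -0.49. WRKY7 had 40.7, 37.1 and 41.5 CPM in MYBR1 cells, against 121, 114 and 116 CPM in EV cells (log2 -1.56 ± 0.11, edgeR adjusted p = 6.56e-07). WRKY11, a negative regulator of basal resistance whose promoter with 4 W-box cores is shown above, had 426, 467 and 470 CPM in MYBR1 cells, against 1048, 1005 and 973 CPM in EV cells. Its sister gene WRKY17 had 306, 308 and 279 CPM, against 630, 619 and 650 CPM in EV cells. WRKY6, a regulator of senescence and phosphate genes, was lower by 1.09 on the log2 scale. In these 4 genes the replicates were tight and the groups far apart. The 4 induced genes were WRKY38 (log2 1.33), WRKY70 (0.82), WRKY46 (0.60) and WRKY18 (0.40). WRKY70, placed between salicylic acid and jasmonate signalling, had 18.5, 21.2 and 22.9 CPM in MYBR1 cells, against 9.05, 13.3 and 13.1 CPM in EV cells (0.82 ± 0.18, edgeR adjusted p = 0.00698), and did not differ detectably from the mean of the 5 other TFs (-0.08 ± 0.20). Against that mean, 15 of the 25 WRKY genes tested were lower (background 5.89%) and 1 was higher, with WRKY6 at -1.01 ± 0.07 and WRKY7 at -0.94 ± 0.09. WRKY33, which was itself transfected in 1 of these groups, is not counted there. WRKY6 and WRKY7 were lower than in both MYB3 and DIV2 cells. WRKY11 averaged 520 CPM in MYBR1 cells, 480, 359 and 544 in MYB3, DIV2 and GBF2 cells, and 1744 and 1095 in WRKY33 and HSFA6A cells. It was higher than in DIV2 cells (log2 0.54), and WRKY17 was higher than in MYB3 cells (0.31).

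Ethylene synthesis was split within 1 enzyme family. Of 21 genes, 20 were tested, 3 were induced and 6 repressed (background 9.37% induced and 8.27% repressed), with a median of -0.18. ACS2, an ACC synthase of the committed step, had 245, 327 and 333 CPM in MYBR1 cells, against 999, 1086 and 1157 CPM in EV cells (log2 -1.84 ± 0.12, edgeR adjusted p = 4.95e-07). ACS6, ACS8 and ACS7 fell by 1.09, 0.81 and 0.44 on the log2 scale. ACS11, of the same family, moved the other way, with 24.1, 21.7 and 29.1 CPM in MYBR1 cells, against 3.94, 3.99 and 2.60 CPM in EV cells (2.82 ± 0.21). The response factor gene ERF1 fell by 1.20. EIN2, the central membrane protein of the pathway, had 36.4, 50.9 and 38.0 CPM in MYBR1 cells, against 49.8, 39.9 and 40.5 CPM in EV cells, with overlapping groups (-0.05 ± 0.15). Against the mean of the 5 other TFs, ACS2 was lower by -1.48 ± 0.10 and ERF1 by -1.5 ± 0.12, while ACS11 was higher by 1.57 ± 0.21. ACS11 was not the highest in MYBR1 cells, with 28.6 CPM, against 39.1 CPM in DIV2 cells (log2 -0.45, not called).

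**Figure D3:**
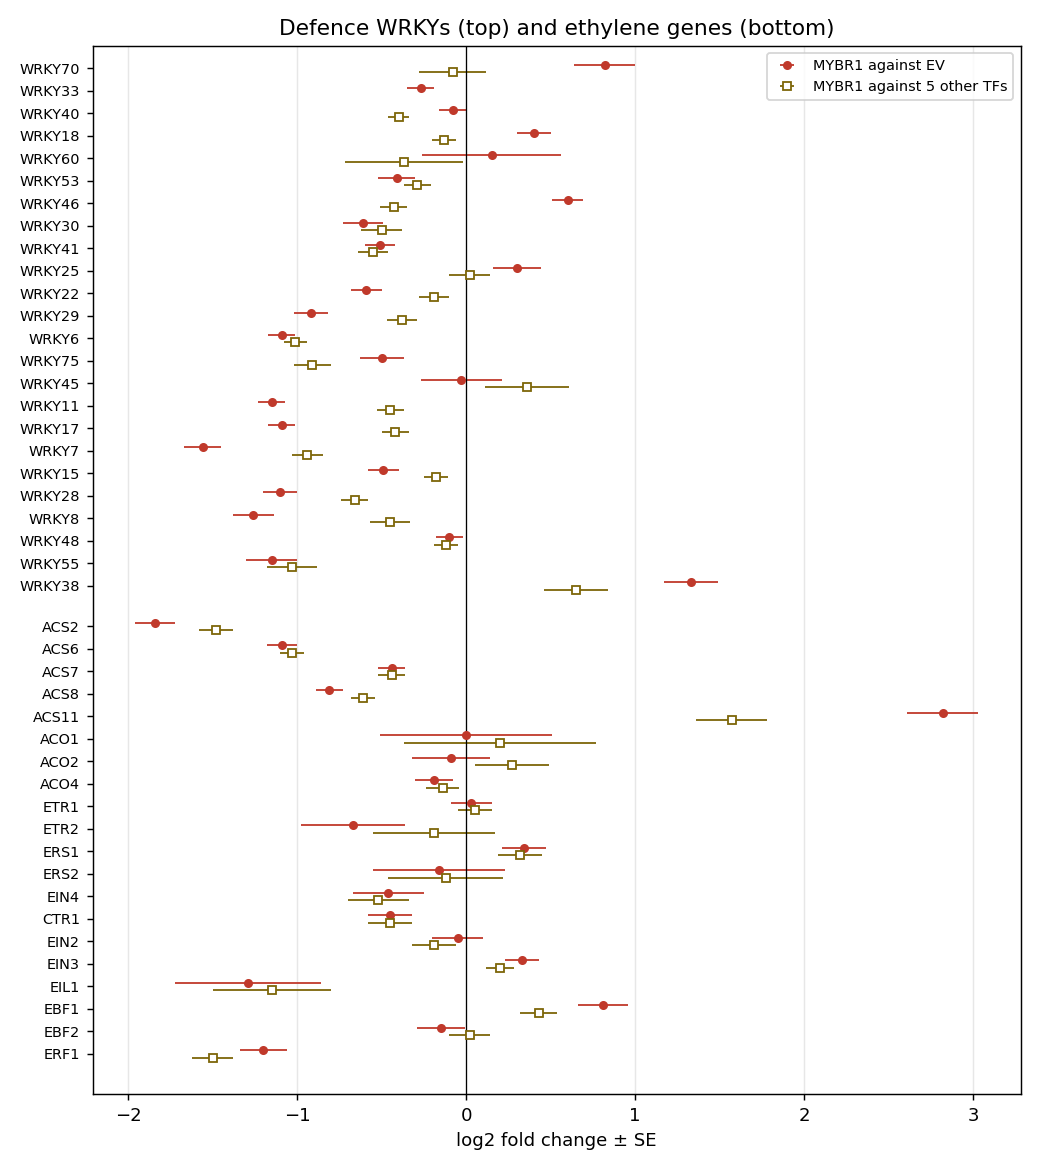
Log2 fold changes (± SE) of the tested defence WRKY genes (top) and ethylene genes (bottom) in MYBR1 cells against EV (red, 3 libraries each) and against the mean of the 5 other TFs of batch 2 (open squares, 15 libraries). Of 24 WRKYs 15 were repressed against EV, and ACS2 (-1.84) and ACS11 (2.82) stand at the ends of the ethylene genes; WRKY33 has no square because it was transfected in 1 of the other groups.

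Genes that perceive microbial patterns and relay that signal were repressed in part. Of 22 genes, 22 were tested, 2 were induced and 11 repressed (background 9.37% induced and 8.27% repressed), with a median of -0.32. PEN3, an ABC transporter at sites of pathogen entry, was the most abundant, with 3707, 4369 and 4021 CPM in MYBR1 cells, against 8271, 7642 and 7784 CPM in EV cells (log2 -0.97 ± 0.09, edgeR adjusted p = 7.46e-06). FRK1, a receptor-like kinase used as a marker of early pattern responses, had 115, 152 and 161 CPM in MYBR1 cells, against 316, 355 and 330 CPM in EV cells. BIK1, the cytoplasmic kinase below FLS2, had 99.6, 103 and 132 CPM, against 210, 232 and 246 CPM in EV cells. FLS2, the flagellin receptor itself, differed by -0.11 ± 0.08 and was not called. Of the 2 induced genes, MKK5 (0.49) lost its call in 5 of the 6 single-library omissions and LYK5 (0.29) in 3. Against the mean of the 5 other TFs, 13 of the 22 were lower (background 5.89%) and none higher. FRK1 averaged 163 CPM in MYBR1 cells, 118, 125 and 137 in MYB3, DIV2 and GBF2 cells, and 1072 and 409 in WRKY33 and HSFA6A cells. Against MYB3 alone, FRK1 (log2 0.47) and BIK1 (0.56) were higher in MYBR1 cells.

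Salicylic acid genes were divided. Of 18 genes 13 were tested, 4 were induced and 3 repressed (background 9.37% induced and 8.27% repressed), with a median of 0.24. SARD1, which drives transcription of the synthesis gene ICS1, had 165, 163 and 152 CPM in MYBR1 cells, against 23.6, 25.0 and 32.1 CPM in EV cells (log2 2.57 ± 0.13, edgeR adjusted p = 1.56e-07). PBS3, which conjugates isochorismate on the way to salicylic acid, had 72.9, 90.6 and 124 CPM in MYBR1 cells, against 23.8, 37.4 and 32.8 CPM in EV cells. ICS1 itself had 28.4, 63.3 and 64.8 CPM in MYBR1 cells, against 32.0, 39.5 and 34.8 CPM in EV cells, and was not called. EDS1, the lipase-like partner of PAD4, fell by 0.84 on the log2 scale, while PAD4 rose by 0.46. Against the mean of the 5 other TFs, SARD1 was higher (0.57 ± 0.10) and PBS3 (-0.65) and ICS1 (-1.16) lower, but the groups were not alike. SARD1 averaged 183 CPM in MYBR1 cells, 330 in MYB3, 140 in DIV2 and 191 in GBF2, 44.2 in WRKY33 and 72.8 in HSFA6A cells, and was lower than in MYB3 cells alone (log2 -0.85, edgeR adjusted p = 5.91e-05).

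Of 13 genes of indole glucosinolates and camalexin, the phytoalexin of Arabidopsis, 11 were tested, 1 was induced and 4 repressed (background 9.37% induced and 8.27% repressed), with a median of -0.08. CYP71A12, which makes indole acetonitrile, had 14.1, 9.31 and 7.77 CPM in MYBR1 cells, against 43.9, 40.9 and 38.6 CPM in EV cells (log2 -2.00 ± 0.19, edgeR adjusted p = 1.05e-05). PAD3, the last enzyme of camalexin synthesis, had 10.9, 13.5 and 12.6 CPM in MYBR1 cells, against 39.4, 33.6 and 37.9 CPM in EV cells. Both were also lower than the mean of the 5 other TFs, CYP71A12 by -2.49 ± 0.24 and PAD3 by -1.42 ± 0.12. For PAD3 that mean holds WRKY33 cells at 269 CPM, and MYBR1 cells at 14.1 CPM lay beside DIV2 cells at 13.9 CPM (log2 0.03). For CYP71A12 it holds WRKY33 cells at 410 CPM, with 33.7 to 69.7 CPM in the remaining TF groups and 11.9 CPM in MYBR1 cells. CYP71A12 was lower than in DIV2 cells alone (log2 -1.54) and than in MYB3 cells alone (-2.56). The induced member, CYP79B2, acts at the entry from tryptophan (1.00 ± 0.17).

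Most of the jasmonate genes that rose encode repressors. Of 26 genes 21 were tested, 8 were induced and 2 repressed (background 9.37% induced and 8.27% repressed), with a median of 0.30. The 8 comprised 7 JAZ genes, which encode repressors of jasmonate responses that are themselves induced by jasmonate, and the synthesis gene OPR3. JAZ7 had 29.3, 25.6 and 18.9 CPM in MYBR1 cells, against 6.15, 4.26 and 4.21 CPM in EV cells (log2 2.34 ± 0.22), and JAZ10, JAZ8 and JAZ5 rose by 0.57, 0.65 and 0.41. The 2 repressed genes were the lipoxygenases of jasmonate synthesis LOX3 and LOX4. LOX3 had 866, 953 and 945 CPM in MYBR1 cells, against 1450, 1524 and 1533 CPM in EV cells. None of the JAZ genes was called higher than the mean of the 5 other TFs, whereas LOX3 (-1.06 ± 0.07) and LOX4 (-0.75) were lower there too. The number induced fell to 4 or 5 without MYBR1 replicate 2 or any 1 EV library.

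Phenylpropanoid enzymes lead to lignin and flavonoids. Of 25 genes 16 were tested, 8 were induced and 1 was repressed (background 9.37% induced and 8.27% repressed), with a median of 0.83. The entry genes were 4CL2 (log2 1.73 ± 0.29), 4CL1 (0.87), PAL1 (0.80) and PAL2 (0.69), and those of monolignol steps HCT (1.3 ± 0.25), CCOAOMT1 (1.20 ± 0.18) and COMT1 (1.01). PAL1 had 223, 137 and 93.8 CPM in MYBR1 cells, against 106, 80.5 and 74 CPM in EV cells, with groups that overlapped. The highest level was in MYBR1 replicate 1, which has the largest ribosomal share. The number of induced genes was 5 without MYBR1 replicate 1, MYBR1 replicate 2 or EV replicate 2, and 4 without EV replicate 3 or with the ribosomal covariate. It was 8 without replicate 1 of both groups. The repressed gene was CCR2, a cinnamoyl-CoA reductase linked to defence, with 534, 602 and 624 CPM in MYBR1 cells, against 889, 959 and 1024 CPM in EV cells. Against the mean of the 5 other TFs, 11 of 20 genes were higher (background 3.81%) and none lower. MYBR1 replicate 1 is part of that contrast too, and the number without it is not given. Against DIV2 cells alone, HCT (log2 0.99) and COMT1 (0.61) were higher, while 4CL2 (0.31) and CCOAOMT1 (0.40) were not called. Flavonoid genes such as CHS were too low to test against EV.

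In the list of wall genes, xyloglucan enzymes were induced, and EXPA1 and EXPA4 repressed. Of 33 genes 22 were tested, 12 were induced and 3 repressed (background 9.37% induced and 8.27% repressed), with a median of 0.58. The induced genes were 9 XTH genes, whose enzymes cut and rejoin xyloglucan, and the primary-wall cellulose synthases CESA2, CESA5 and CESA6. XTH24 had 402, 475 and 469 CPM in MYBR1 cells, against 110, 115 and 91.4 CPM in EV cells (log2 2.09 ± 0.11, edgeR adjusted p = 2e-07), and XTH22, a touch-induced gene, had 962, 981 and 971 CPM, against 413, 464 and 435 CPM in EV cells. The 3 repressed genes were expansins: EXPA4, given above, EXPA1, with 10.8, 8.54 and 3.84 CPM in MYBR1 cells, against 43.6, 28.1 and 28.4 CPM in EV cells, and EXPA8, with 1, 0 and 0 counts in MYBR1 libraries, against 25, 37 and 13 counts in EV libraries. EXPA8 passed the filter on low counts only through the EV libraries, and XTH4 only through the MYBR1 libraries (39, 38 and 29 counts, against 4, 0 and 3 counts in EV libraries), so such genes had to differ and their calls support nothing about the list. XTH24 was also higher than the mean of the 5 other TFs (0.83 ± 0.08), while XTH22 was at 0.06 ± 0.06.

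Auxin response genes were mixed, with 4 induced and 5 repressed of 23 tested (background 9.37% induced and 8.27% repressed) and a median of -0.18. GH3.1, an enzyme that conjugates auxin to amino acids, had 187, 140 and 125 CPM in MYBR1 cells, against 31.8, 35.1 and 30.4 CPM in EV cells (log2 2.21 ± 0.15). LBD16, a factor of lateral root initiation, had 11, 7.25 and 7.09 CPM in MYBR1 cells, against 32.8, 30.3 and 28.8 CPM in EV cells (-1.87 ± 0.19). IAA19 fell by 1.00 on the log2 scale. GH3.1 and LBD16 kept their direction against the mean of the 5 other TFs (0.98 and -1.09), although GH3.1 averaged 172 CPM in MYBR1 cells and 203 CPM in GBF2 cells.

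Among 12 calcium sensor and CAMTA genes, all tested, 6 were induced and 2 repressed (background 9.37% induced and 8.27% repressed), with a median of 0.53. CML23, a calmodulin-like protein, had 100, 80.8 and 67.6 CPM in MYBR1 cells, against 29.0, 31.8 and 24.5 CPM in EV cells (log2 1.54 ± 0.16), and CML24, whose promoter with 4 CGCGT words is shown above, rose by 0.75 ± 0.15. CAMTA3, a factor that binds that word, did not differ detectably (0.11 ± 0.09). Of 23 rapid stress factors of the ERF, CBF and ZAT families, 21 were tested, 8 were induced and 7 repressed (background 9.37% induced and 8.27% repressed), with a median of -0.02. CBF2, a cold response factor, had 36.0, 25.7 and 28.7 CPM in MYBR1 cells, against 6.38, 4.5 and 3.38 CPM in EV cells (2.66 ± 0.23), and DREB2A and ERF104 rose by 1.26 and 1.57. ZAT11, a zinc finger factor, had 334, 374 and 359 CPM in MYBR1 cells, against 652, 711 and 690 CPM in EV cells (-0.94 ± 0.09). Of 15 heat shock genes 13 were tested, 5 were induced (background 9.37%) and none repressed, with a median of 0.61, led by the factor HSFA2 (1.79 ± 0.39). Without MYBR1 replicate 2 the count induced was 1, and without EV replicates 1 and 2 in turn it was 3 and 2. Against the mean of the 5 other TFs, 1 of 21 rapid stress factors was higher, CBF2 (1.31 ± 0.20), and 7 were lower. DREB2A (0.24), ERF104 (0.27) and CML24 (0.09) were not called there. Of 12 calcium sensor and CAMTA genes 3 were higher and 3 lower, and of 15 heat shock genes 2 were higher and none lower (background 3.81% higher and 5.89% lower).

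**Figure D4:**
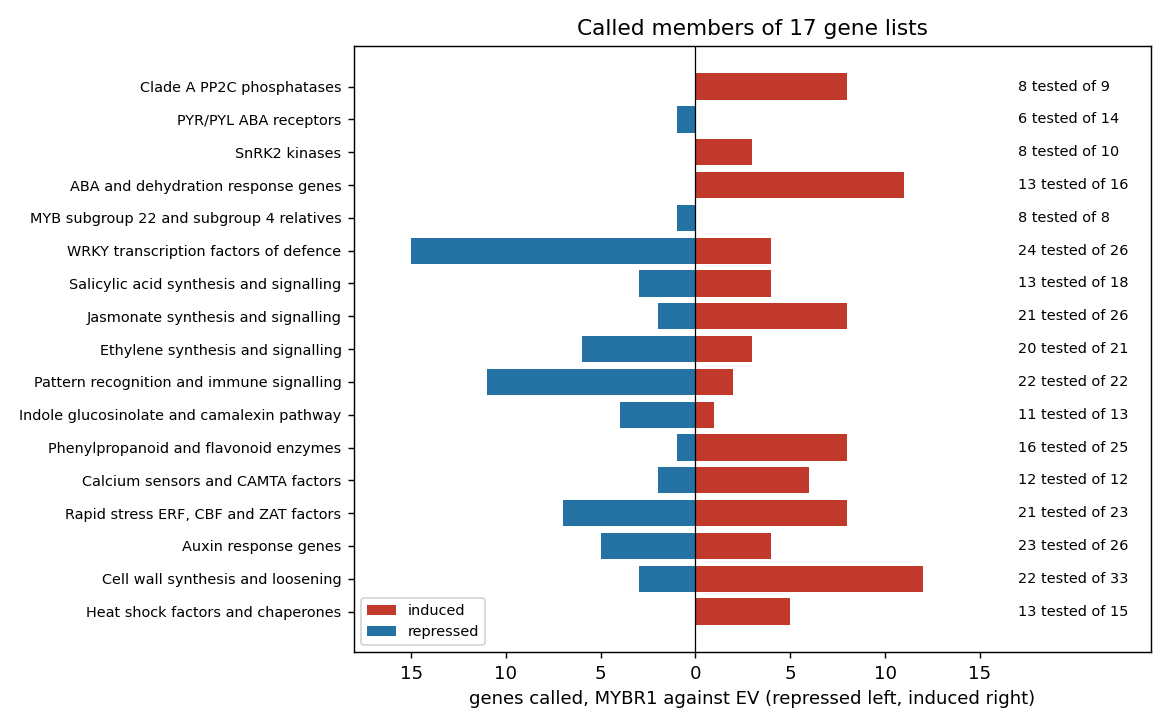
Number of members called induced (red, right) and repressed (blue, left) in MYBR1 cells against EV in 17 gene lists, with the number tested of the number listed at the right. The PP2Cs (8 of 8) and ABA response genes (11 of 13) have only induced calls, while the WRKYs (15 of 24) and pattern recognition genes (11 of 22) lie mostly on the repressed side.

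Classes taken from the annotation's descriptions cover more genes, beside a background of 9.37% induced and 8.27% repressed. Of 54 WRKY factors tested, 23 were repressed (42.6%) and 7 induced, and of 274 receptor-like and leucine-rich repeat kinases, 84 were repressed (30.7%) and 31 induced (11.3%). Glutathione transferases had 4 induced and 12 repressed of 42, with a class median of 0.10 on the log2 scale, and peroxidases 4 induced and 12 repressed of 68. NAC factors went the other way, with 16 of 55 induced (29.1%) and 3 repressed, as did expansins and xyloglucan enzymes, with 15 of 29 induced and 5 repressed, and arabinogalactan, extensin and proline-rich wall proteins, with 36 of 131 induced and 11 repressed. Disease resistance proteins, the intracellular immune receptors, had 29 of 137 induced (21.2%) and 7 repressed. Cytosolic ribosomal proteins were nearly all uncalled, with 2 induced and 8 repressed of 299. Among all protein phosphatases 2C, 8 were induced and 10 repressed of 55 tested.

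Markers of 2 cell types were in part called lower. Endodermis markers summed to 27.0 to 42.3 CPM in MYBR1 libraries, against 50.7 to 53.9 CPM in EV libraries, with CASP1, CASP2 and MYB36 repressed of 5 tested (background 8.27%). Phloem markers summed to 13.3 to 22 CPM, against 24.8 to 36.6 CPM, with APL and SUC2 repressed of 4, calls that were both lost without EV replicate 1, EV replicate 3 or MYBR1 replicate 2. Against the mean of the 5 other TFs, 0 of 6 endodermis and 1 of 4 phloem markers were lower (background 5.89%). Fewer cells of a type and less RNA per cell cannot be told apart in these bulk samples, and the part of cell makeup in the repressed genes was not tested. No marker of root hair, stele, xylem, root cap or dividing cells that was tested was called by edgeR (0 of 14, with 4 at an unadjusted p under 0.05 and 1 called by DESeq2). Over all genes tested, 4823 of 17337 had an unadjusted p under 0.05 in edgeR, a share much like that of these markers. Median log2 fold changes were still below the -0.01 of all genes in xylem (-0.75, 5 tested), stele (-0.58, 3 tested) and root hair (-0.79, 1 tested). In root cap and dividing cells they were -0.09 and -0.04. The 6 libraries held at most 0.232 CPM summed over 4 green leaf markers. The single cortex marker was listed at 0 in all 6 libraries.

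Levels in the other TF groups differed widely among the genes with the largest changes. On the scale of batch 2, EXPA4 averaged 39.3 CPM in MYBR1 cells, 59.0 in MYB3, 37.2 in DIV2 and 45.3 in GBF2, but 272 in WRKY33 and 221 in HSFA6A cells, and 405 CPM in EV cells. DOGT1 averaged 59.7 CPM in MYBR1 cells, 32.7, 67.7 and 78.4 in MYB3, DIV2 and GBF2 cells, 8.76 and 9.19 in WRKY33 and HSFA6A cells, and 3.86 CPM in EV cells. These comparisons share the EV libraries. ZF1 and AT4G03480, in contrast, were lower in MYBR1 cells than in each of the other 6 groups: ZF1 had 17.7 to 26.8 CPM in MYBR1 cells, 43.3 to 523 CPM in the 15 libraries of the other TFs and 154 to 185 CPM in EV cells, and AT4G03480 had 22.1 to 24.6 CPM in MYBR1 cells, 38.4 to 586 CPM in the other TFs and 181 to 206 CPM in EV cells. Over all genes, all MYBR1 libraries lay above all 15 libraries of the other TFs in 137 genes (0.700%) and below them in 191 (0.976%).

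**Figure D5:**
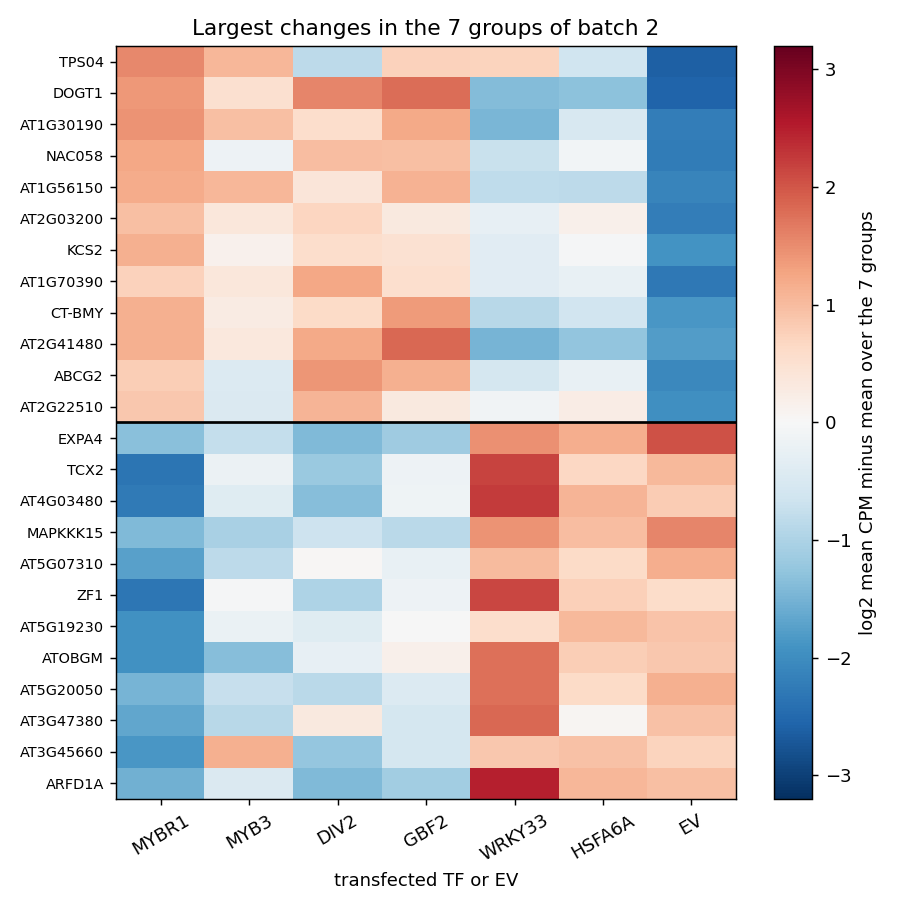
Levels of the 24 genes with the largest changes in the 7 groups of batch 2 (log2 of the mean CPM minus the row's mean over groups; red high, blue low; induced genes above the line, repressed below). EXPA4 is at 39.3 CPM in MYBR1, 37.2 in DIV2 and 405 in EV cells, and ZF1 is lowest in MYBR1 cells (22.6 CPM).

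By the same rule of size, the genes most above the mean of the 5 other TFs were AT5G51920, a pyridoxal phosphate dependent transferase (log2 1.51 ± 0.16, edgeR adjusted p = 4.76e-08), UGT76D1, a glycosyltransferase (1.43 ± 0.19), HIS1-3, the drought-induced linker histone (1.43 ± 0.19), AT4G15150, a glycine-rich protein (1.32 ± 0.12), and ERF7, a repressor-type ethylene response factor (1.28 ± 0.30). AT5G51920 averaged 28.6 CPM in MYBR1 cells and 6.81 to 13.1 CPM in the other TF groups. The genes most below them were ZF1 (-2.65 ± 0.13), AT4G03480 (-2.54 ± 0.11), the beta-glucosidase gene BGLU31 (-2.53 ± 0.26), CYP71A12 (-2.49 ± 0.24) and AT5G19240, a GPI-anchored protein whose gene lies beside that of AT5G19230 (-2.21 ± 0.10). BGLU31 lay at the threshold against EV (-0.79 ± 0.25, adjusted p = 0.0504 in edgeR), and fell on either side of it under other settings, with an adjusted p of 0.0228 by DESeq2, and in edgeR 0.000174 without the filter, 0.00459 with a replicate block and 0.431 with the ribosomal share as a covariate.

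MYB3, an R2R3-MYB repressor, and DIV2, a MYB-related factor, were the closest relatives by domain among the other TFs. Against MYB3, 521 of 19564 genes were higher in MYBR1 cells (2.66%) and 1075 lower (5.49%). Against DIV2, 1391 were higher (7.11%) and 1347 lower (6.89%) of the same number. EXPA4 was lower than in MYB3 cells (log2 -0.59) and not detectably different from DIV2 cells (0.08). TPS04 was higher than in DIV2 cells (2.36) and not called against MYB3 (0.49). ZF1 was lower than in both (-2.26 against MYB3 and -1.33 against DIV2), as was AT5G07310 (-0.91 and -1.78).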

How the data were processed

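Libraries were made from polyA RNA of sorted root protoplasts. Per the labels and the study's methods, the authors aligned reads to TAIR10 with HISAT2 2.0.5, made counts for each gene (GenomicFeatures, GenomicAlignments) and deposited these raw counts without normalization; DESeq2 1.22.1 is named for their later tests. Whether counting used strand is not given in the sources used here, so genes that overlap others are uncertain. The study's removal of CHX-responsive genes was not repeated.

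From the deposited counts, edgeR 4.0.16 (R 4.3.3) was run with TMM, filterByExpr at a minimum count of 10, glmQLFit and glmQLFTest, and a Benjamini-Hochberg FDR under 0.05 over all genes, on the 6 libraries for MYBR1 against EV and on the 21 libraries of batch 2 for MYBR1 against the 5 other TFs, MYB3 and DIV2. SE is the absolute log2 fold change over the square root of F. The transfected genes were left out. The code was tested on simulated data. The members and lists were chosen with earlier results of these data known. Genes named by size were the 12 induced and 12 repressed (5 and 5 against the other TFs) with the largest change among called genes with a mean log2 CPM of at least 3, no overlap of libraries, a symbol or description and a place on chromosomes 1 to 5, rRNA-like and mitochondria-like loci left out; from each list up to 4 members per direction with the smallest FDR were named, plus genes tied to MYB44, and further members were named after their values were seen. RefSeq (TAIR10.1) gave names for 32795 of 33016 genes, coordinates and sequences. Alternatives included DESeq2 1.42.0, other scalings, filters and controls, a replicate block and each library left out. Replicates differed beyond counting noise, and precision is limited by 5955353 counts outside rRNA-like loci in the shallowest library.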

Additional observations from a re-analysis of the deposited data

How the results depend on the processing

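The counts for MYBR1 against EV stayed within 1.5 times under DESeq2 (1795 induced, 1556 repressed), DESeq2 size factors (1637 and 1416), no filter (1759 and 1723), all 9 EV libraries with a batch term (1143 and 1113), all 21 libraries in 1 fit (1253 and 1370), removal of rRNA-like loci (1645 and 1442), and, chosen after seeing the data, the ribosomal covariate (1606 and 1514) and omission of replicate 1 of both groups (1146 and 1074). They moved to 36 and 99 with total counts, to 37 and 60 with the 15 libraries of the other TFs pooled as control, which adds the spread between TFs, and to 600 and 449 against a fold of 1.5, also chosen after seeing the data. Leaving out 1 library gave 1089 to 1807 induced and 938 to 1685 repressed genes, with 938 repressed without EV replicate 2. Against the 5 other TFs the range was 428 to 508 higher and 830 to 940 lower, with 428 without MYBR1 replicate 1 and 474 without MYBR1 replicate 2. Against MYB3 it was 334 to 457 and 762 to 946, with 334 without MYB3 replicate 3, and against DIV2 1070 to 1262 and 1028 to 1165 (these omissions were chosen after seeing the data). With only the 6 libraries compared, 898 genes were higher than in DIV2 and 1281 lower, and 724 were higher than in MYB3 and 1082 lower. Fits left with 2 libraries in a group borrow their spread from the rest.

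Deviations of same-numbered libraries correlated at 0.35, 0.04 and 0.21 over 8684 genes, and the 3 were not all over 0.1, so the numbers were not taken to pair the samples. MYBR1 replicates 1 and 3 correlated best with their own number, and for MYBR1 replicate 2 the values were 0.04 for its own and 0.05 for EV replicate 3. An effect shared by libraries of 1 number may remain. With a replicate block, 1772 genes were induced and 1632 repressed against EV, 878 higher and 1340 lower against the 5 other TFs, 625 and 1310 against MYB3, and 1604 and 1446 against DIV2; of the named genes, it changed the call of BGLU31 alone (-0.77).

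Scaling by total counts moved the median of all genes to -0.53 and raised SEs such as those given above. Log2 fold changes that changed sign with total counts were those of WRKY18 (-0.14), PAD4 (-0.07), CBP60a (-0.09), JAZ5 (-0.09), EIN3 (-0.18), MKK5 (-0.11), LYK5 (-0.21) and ABI1 (-0.10). With the 15 other-TF libraries as control they were those of HAI2 (-0.06), SNRK2.8 (-1.27), WRKY46 (-0.50), WRKY70 (-0.21), WRKY18 (-0.18), PBS3 (-0.69), PAD4 (-0.29), CBP60a (-0.04), JAZ7 (-0.44), JAZ10 (-0.06), JAZ8 (0.00), LYK5 (-0.08), CYP79B2 (-0.14), CML38 (-0.51), ERF104 (-0.06), GH3.3 (-0.08) and XTH19 (-0.06). EIN2, not called in any of these fits, lay between -0.23 and 0.05 when single libraries were left out, with 0.05 without EV replicate 1, 0.03 without MYBR1 replicate 1 and 0.02 without MYBR1 replicate 3, and at 0.14 without replicate 1 of both groups. Promoter shares of genes called by DESeq2 lay within the 95% Wilson intervals of the shares given. The groups of 3 and the depth of MYBR1 libraries limit what can be called among genes near 1 CPM.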
